A study of Homo sapiens with 18 samples.

Results

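The MYC network genes examined here were 9 genes whose proteins pair with MYC, pair with its partner MAX, or work in the arms of the network beside it: MAX, MXD1, MXI1, MXD3, MXD4, MNT, MGA, MLX and ZBTB17. They were chosen by name, and each was represented by the 2000 bp on either side of its transcription start site (TSS) on the hg19 build. MXI1 had a window at an upstream and at a downstream start, so that there were 10 windows. A further MXI1 start in RefSeq (GRCh38.p14) was given no window. A peak belonged to a gene when it overlapped a window by at least 1 bp. In all lists together the members' peaks merged into 20 regions, of 43222 merged regions in the series.

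The data came from sequencing of chromatin immunoprecipitated with a MYC antibody (ChIP-seq) in MCF10A, an immortalised, non-tumour breast epithelial cell line. All cells carried pBABE-hygro-MYC and pMN-IRES-GFP-PI3KH1047R, so that ectopic MYC and the mutant PI3K were common to every group, the controls included. The groups differed in the doxycycline-inducible hairpin in pLKO-tetON-puro: shG9a 1 and shG9a 4 (written shG9a_1 and shG9a_4), which target the histone H3 lysine 9 methyltransferase G9a, or the scramble hairpin shSCR, each induced with 2 µg/mL doxycycline for 72 h. There were 3 MYC libraries per group, called biological replicates in the series' design, each immunoprecipitated from 10000000 cells with the homemade MYC antibody N262, and 9 further samples were inputs, which were not analysed here. The peak lists hold no expression values, so neither the depletion of G9a nor the identity of the cells could be checked in them.

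MYC binds DNA as a heterodimer with MAX, preferably at the E-box CACGTG, and MAX is shared by most of the network. The MXD proteins (MXD1, MXI1, MXD3 and MXD4), MNT and MGA also dimerise with MAX, occupy the same kind of sequence and, in most cases, recruit corepressors, so that they oppose MYC at its targets. MLX heads a parallel arm that pairs with the glucose-sensing factors MLXIP and MLXIPL, and ZBTB17 (MIZ1) is a zinc-finger protein through which MYC is known to repress genes that lack an E-box.

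The promoters of these genes differed in whether they held the E-box that MYC and MAX bind. RefSeq (GRCh38.p14) promoters, each 250 bases before to 50 bases after an annotated start, were found for 8 of the 9 genes, 13 promoters in all. ZBTB17 was not among them. CACGTG, which reads the same on both strands, was in 3 of the 13 promoters, those of MNT, MXD4 and MLX, its first base lying at -193, -238 and -50 from the start, in that order. Of all 35116 RefSeq promoters, 2548 (7.26%) held it. The variant CACGCG or its reverse complement CGCGTG was in 3 further promoters, of MXD3, MXI1 and MGA, and in 4014 (11.4%) of all promoters. The remaining 7 promoters, which include all those of MAX and MXD1, held neither motif. Only the promoters were scanned, not the sequence under the peaks. From the hg19 starts, the strongest peaks at MAX and MXD1 had summits at -416 to -327 bp and at -758 to -653 bp, in that order. Both lay further upstream than the 250 bases scanned. The promoters with an E-box and that of MXD3, as an example with the variant, are given here, 5′ to 3′ on the gene's strand, with CACGTG or CGCGTG in capitals. They lie on GRCh38.p14 at chr17:2401011-2401310 (minus strand) for MNT, chr4:2262060-2262359 (minus) for MXD4, chr17:42566850-42567149 (plus) for MLX and chr5:177312703-177313002 (minus) for MXD3. A match describes the letters only, and a start on this build need not be the hg19 start that centres a window. Whether any of these motifs, that of MXD3 included, lies under a peak was not determined.
MNT: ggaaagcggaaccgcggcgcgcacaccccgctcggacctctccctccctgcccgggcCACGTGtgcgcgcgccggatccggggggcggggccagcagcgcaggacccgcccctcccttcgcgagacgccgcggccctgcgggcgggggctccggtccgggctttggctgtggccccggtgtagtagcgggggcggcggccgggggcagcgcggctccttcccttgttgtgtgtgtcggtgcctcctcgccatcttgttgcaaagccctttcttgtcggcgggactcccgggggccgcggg
MXD4: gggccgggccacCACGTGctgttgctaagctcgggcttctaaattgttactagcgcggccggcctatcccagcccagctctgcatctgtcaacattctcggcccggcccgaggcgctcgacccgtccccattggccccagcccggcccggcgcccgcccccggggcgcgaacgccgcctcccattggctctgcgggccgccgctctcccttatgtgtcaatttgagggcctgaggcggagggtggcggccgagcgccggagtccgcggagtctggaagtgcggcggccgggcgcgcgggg
MLX: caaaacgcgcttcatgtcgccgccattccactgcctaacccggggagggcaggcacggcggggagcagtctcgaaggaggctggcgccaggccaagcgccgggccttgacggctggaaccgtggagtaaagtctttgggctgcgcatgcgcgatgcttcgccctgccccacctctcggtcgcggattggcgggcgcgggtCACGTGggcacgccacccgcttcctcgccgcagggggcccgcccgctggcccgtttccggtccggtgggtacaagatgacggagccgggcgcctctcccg
MXD3: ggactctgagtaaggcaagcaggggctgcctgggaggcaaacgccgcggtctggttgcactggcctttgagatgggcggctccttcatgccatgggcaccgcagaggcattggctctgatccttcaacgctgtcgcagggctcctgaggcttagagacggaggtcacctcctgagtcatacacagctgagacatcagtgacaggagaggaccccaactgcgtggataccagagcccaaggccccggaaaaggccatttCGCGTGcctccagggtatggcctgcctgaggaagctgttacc

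MYC peaks stood at 8 of the 9 genes in scramble cells, and ZBTB17 was the gene without one. In the 6 shG9a libraries the number of windows with a peak was 0, 8 and 8 of 10 in shG9a_1 replicates 1, 2 and 3 and 7, 6 and 8 in shG9a_4, against 9, 9 and 9 in shSCR. The windows held 0, 11 and 12 listed peaks in shG9a_1 and 10, 12 and 12 in shG9a_4, against 20, 22 and 15 in shSCR. Every shG9a library therefore had fewer peaks at these genes than any shSCR library. The whole lists differed in the same direction, with 113, 11462 and 13068 peaks in shG9a_1 and 11168, 17454 and 12922 in shG9a_4, against 29827, 34738 and 20118 in shSCR. Of the 14209 merged regions with a peak in every shSCR library, 0.767%, 57.7% and 64.5% were also called in shG9a_1 and 58.3%, 77.3% and 66.3% in shG9a_4.

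shG9a_1 replicate 1 stood apart, with 113 listed peaks and none at any of these genes, and it entered no comparison of peak heights. Depth was taken as the lowest background recovered from the deposited fold and p-values over the shortest peak. Relative to the mean of the shSCR libraries it was 2.36, 0.839 and 1.09 in shG9a_1 and 1.90, 1.05 and 2.65 in shG9a_4, against 1.04, 1.04 and 0.926 in shSCR. The value of shG9a_1 replicate 1 rests on a shortest peak of 51 bp, where the other lists had 130 to 157 bp. Absolute read numbers were not recovered from the lists.

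When each list was shortened to its 11168 strongest peaks, the windows with a peak numbered 8 and 8 in shG9a_1 replicates 2 and 3 and 7, 5 and 6 in shG9a_4, against 7, 8 and 7 in shSCR. The hairpin groups overlapped at equal list length. Of the 13 member regions found in every shSCR library, the shortened lists held 9 and 10 in shG9a_1 and 9, 7 and 8 in shG9a_4, against 10, 9 and 9 in shSCR. The shares of all 14209 such regions were 57.0% and 59.2% in shG9a_1 and 58.3%, 61.6% and 60.3% in shG9a_4, against 63.4%, 65.7% and 68.9% in shSCR. Both sets of regions were chosen by a call in every shSCR library, which favours the shSCR lists, so these shares do not compare the groups. The windows of MAX, MXD1, the downstream start of MXI1, MNT and MXD3 were called in all 8 of these shortened lists.

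**Figure D1:**
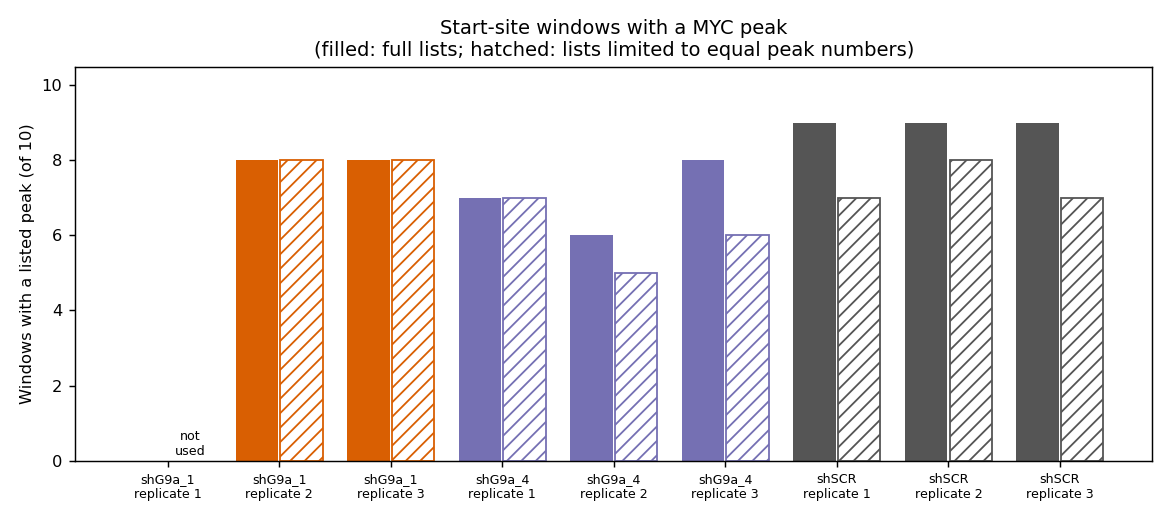
Calls at the 10 windows of the MYC network genes in the 9 MYC libraries (shG9a_1, shG9a_4, then shSCR). MAX, MXD1, the downstream start of MXI1, MNT and MXD3 were called in 8 of 9 libraries, and ZBTB17 in 0.

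Merged across lists, 13 of the 20 member regions had a peak in each of the 3 shSCR libraries. Of these, 6 (46.2%) were kept in at least 5 of the 6 shG9a libraries, where the share among all 14209 such regions was 36.9%. A further 6 (46.2%) were called in 1 to 4 shG9a libraries, against 53.6% of all such regions, and 1 (7.69%) in none, against 9.49%. The shares of the members lay near those of all regions. The 6 kept regions were 1 each at MAX, MXD1 and MXD3 and 3 at MNT, and because shG9a_1 replicate 1 had no peak at any of them, they were called in exactly the other 8 libraries.

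**Figure D2:**
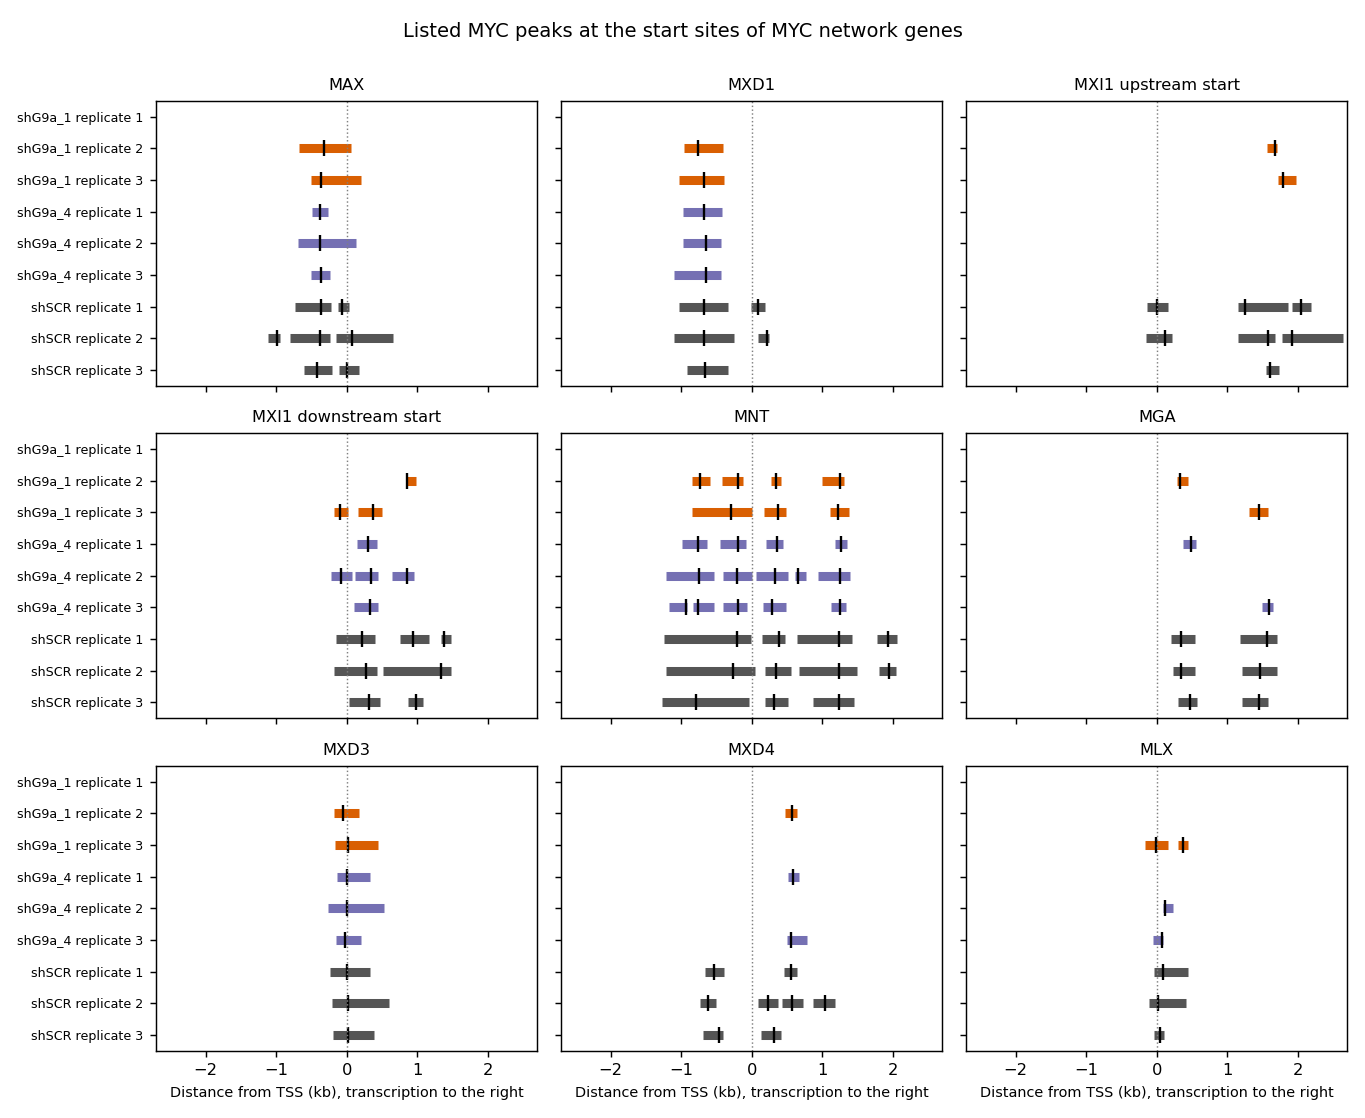
Listed peaks (bars) and their summits (black ticks) around the start sites of 8 genes, in kb from the TSS with transcription running to the right, 1 line per library in the order shG9a_1, shG9a_4, shSCR. The best-ranked peaks at MAX and MXD1 have their summits upstream of the start, and further peaks there reach onto or past it. Those at MXD3 lie on the start, and MNT carries several on both sides.

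In the descriptions below, fold is the authors' deposited enrichment at the summit and rank is the place of the peak in its own list by q-value. Both describe a peak within its list, and ranks from lists of different length show no change between libraries. Where the folds of the groups do not overlap at a site, the share of all regions that do so by fold was not computed. By the height measure used further below, 56.1% of 5245 regions lay wholly lower in shG9a. Height divides by the lowest background and fold by the local one, so that share does not stand in for the share by fold. A separation by fold is therefore not read as particular to a site.

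MAX, the obligate partner of MYC, carried 1 strong peak with its summit just upstream of its start. It lay within a merged region at chr14:65568572-65570029 (hg19), from -802 to 655 bp of the TSS (negative values are upstream). In each shSCR library that region held 2 listed peaks, and the values given here are those of the better-ranked peak. Its summit lay between -416 and -327 bp in all 8 libraries with a peak. The deposited fold was 16.1 and 13.1 in shG9a_1 replicates 2 and 3 and 11.0, 14.6 and 17.6 in shG9a_4, against 31.0, 28.1 and 23.7 in shSCR. Every shG9a fold was below every shSCR fold. The peak ranked 429 and 1047 in shG9a_1 and 1384, 952 and 508 in shG9a_4, against 264, 522 and 524 in shSCR, which is the top 3.74% to 12.4% of the shG9a lists and the top 0.885% to 2.60% of the shSCR lists. A weak second region of 162 bp, with its summit at -987 bp, was listed in shSCR replicate 2 with a fold of 5.28 and in no other library.

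MXD1, a MAX partner and MYC antagonist induced during differentiation, had the best-ranked peak of the network in 7 of the 8 libraries with a peak. It lay within chr2:70141065-70141916, from -1108 to -257 bp of the start, with the summit at -758 to -653 bp. The fold was 17.7 and 30.2 in shG9a_1 replicates 2 and 3 and 15.5, 25.6 and 21.98 in shG9a_4, against 38.5, 34.8 and 37.5 in shSCR. The groups did not overlap, and shG9a_1 replicate 3 came closest to the shSCR libraries. The ranks were 243 and 97 in shG9a_1 and 211, 272 and 251 in shG9a_4, against 89, 199 and 118 in shSCR. The peak was thus in the top 0.742% to 2.12% of each shG9a list and in the top 0.298% to 0.587% of each shSCR list. A second region over the start itself was listed in shSCR replicates 1 and 2 alone, with folds of 4.24 and 5.03.

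MXD3, the MXD family member associated with proliferating cells, had a single region that straddled its start, at chr5:176738697-176739555, with summits at -49 to 25 bp. The fold was 9.89 and 14.9 in shG9a_1 replicates 2 and 3 and 17.1, 26.1 and 17.2 in shG9a_4, against 19.7, 22.04 and 22.5 in shSCR. Here the groups overlapped, since shG9a_4 replicate 2 had the highest fold of all 8 libraries. The ranks were 1745 and 712 in shG9a_1 and 267, 265 and 533 in shG9a_4, against 573, 877 and 502 in shSCR. In shG9a_4 replicate 2 it was the best-ranked peak of the network, ahead of MXD1.

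MXI1, an antagonist of MYC also known as MXD2, had peaks in both of its windows, and was bound less strongly than MAX, MXD1 or MXD3. At the downstream start the main region, chr10:111985546-111986268, was listed in shG9a_1 replicate 3 with a fold of 7.70 and in shG9a_4 with 9.05, 6.83 and 6.83, against 13.4, 11.7 and 10.2 in shSCR. It was not listed in shG9a_1 replicate 2, and the 4 shG9a folds were below the 3 shSCR folds. A second region there, chr10:111986279-111987245, was listed in shG9a_1 replicate 2 with a fold of 4.27 and in shG9a_4 replicate 2 with 6.09, against 5.84, 6.53 and 4.86 in shSCR.

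At the upstream start of MXI1, peaks reached the window in shG9a_1 replicates 2 and 3, with best folds there of 4.27 and 4.98, and in no shG9a_4 library, against best folds of 6.34, 9.45 and 6.08 in shSCR. The merged region, chr10:111968509-111970054, ran to 2691 bp past the start, beyond the edge of the window. Over that whole region the best fold was 6.41 and 6.07 in shG9a_1 replicates 2 and 3 and 5.27 and 6.37 in shG9a_4 replicates 1 and 3, against 6.34, 9.45 and 6.08 in shSCR, so that the groups overlapped. The peaks of shG9a_4 replicates 1 and 3 had summits at 2557 and 2577 bp, past the window, and shG9a_4 replicate 2 had no peak anywhere in the region. RefSeq lists a further MXI1 promoter at chr10:110209981-110210280 on GRCh38.p14, downstream of the first at chr10:110207355-110207654, and it was given no window. The distance of the peaks from that further start was not measured, so those past the window cannot be called remote from every MXI1 start. A region on the upstream start itself, chr10:111967206-111967579, was listed only in shSCR replicates 1 and 2, with folds of 6.14 and 6.76.

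MXD4, a further MXD repressor, held 4 narrow, weak regions, and the pattern of calls was the most scattered of the network. The region from 430 to 779 bp past the start, chr4:2262960-2263309, had a fold of 5.77 in shG9a_1 replicate 2 and of 6.13 and 5.83 in shG9a_4 replicates 1 and 3, against 6.74 and 10.2 in shSCR replicates 1 and 2. The upstream region chr4:2264138-2264468, from -729 to -399 bp, was the 1 member region called in all shSCR libraries and in no shG9a library. Its shSCR folds were low, at 4.40, 5.51 and 6.06, which placed it at 90.6%, 69.5% and 63.2% of the way down the 3 lists. The other 2 regions were listed in shSCR replicates 2 and 3 and in shSCR replicate 2 alone.

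MNT, which is widely expressed and the main MAX-bound antagonist of MYC in proliferating cells, carried the widest binding of the network, with 3 regions in a row that were each called in the 8 libraries with member peaks. They are called upstream (chr17:2304218-2305529, -1271 to 40 bp from the start), middle (chr17:2303702-2304193, 65 to 556 bp after it) and downstream (chr17:2302772-2303643, 615 to 1486 bp after it). Listed peaks overlapping the window covered 1020 and 1443 bp in shG9a_1 replicates 2 and 3 and 1124, 2141 and 1436 bp in shG9a_4, against 2637, 2699 and 2155 bp in shSCR. Each shG9a value was below each shSCR value. The whole lists were also shorter in shG9a, and the share of other windows with such a separation was not computed.

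At the downstream region of MNT the fold was 5.85 and 11.1 in shG9a_1 replicates 2 and 3 and 7.32, 13.3 and 12.1 in shG9a_4, against 15.3, 22.2 and 14.9 in shSCR. Its summit was at 1221 to 1260 bp in all 8 libraries. At the upstream region the fold was 8.69 and 8.72 in shG9a_1 and 6.52, 10.8 and 8.02 in shG9a_4, against 14.8, 14.4 and 12.7 in shSCR. Its strongest summit moved among positions from -790 to -191 bp from library to library, within shSCR as well as within the shG9a groups. The middle region was the exception to this separation, with a fold of 5.58 and 9.91 in shG9a_1 and 7.24, 12.2 and 7.45 in shG9a_4, against 7.96, 15.4 and 15.6 in shSCR, so that the groups overlapped. One more region, from 1772 bp on, was listed in shSCR replicates 1 and 2 alone, with folds of 7.11 and 9.84.

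MGA, a large MAX partner that scaffolds a variant Polycomb complex, had a pair of regions after its start. The first, chr15:41952812-41953184, had a fold of 4.38 in shG9a_1 replicate 2 and 7.24 in shG9a_4 replicate 1, against 7.83, 6.76 and 8.11 in shSCR. The second, chr15:41953793-41954312, had a fold of 6.09 in shG9a_1 replicate 3 and 3.76 in shG9a_4 replicate 3, against 6.94, 12.9 and 6.98 in shSCR. No shG9a library had both regions, all 3 shSCR libraries did, and shG9a_4 replicate 2 had neither although its list was the longest of the shG9a lists. Each region was called in 1 to 4 shG9a libraries, as were 53.6% of all 14209 regions with a peak in every shSCR library. The share of such pairs of regions was not computed.

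MLX, which serves the parallel arm of the network, had 1 region over its start, chr17:40718904-40719526. The best fold was 7.48 in shG9a_1 replicate 3 and 5.56 and 3.70 in shG9a_4 replicates 2 and 3, against 8.67, 7.01 and 4.07 in shSCR. The groups overlapped, and in shSCR replicate 3 the peak was near the end of its list, at 98.4%. ZBTB17 had no peak in its window in any library. The nearest listed peak was 23.1 kb away in shSCR replicate 2 and 26.0 to 26.2 kb away in the other 7 libraries that had peaks at network genes. A window without a listed peak says that no peak passed the caller in that library, not that MYC was absent.

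**Figure D3:**
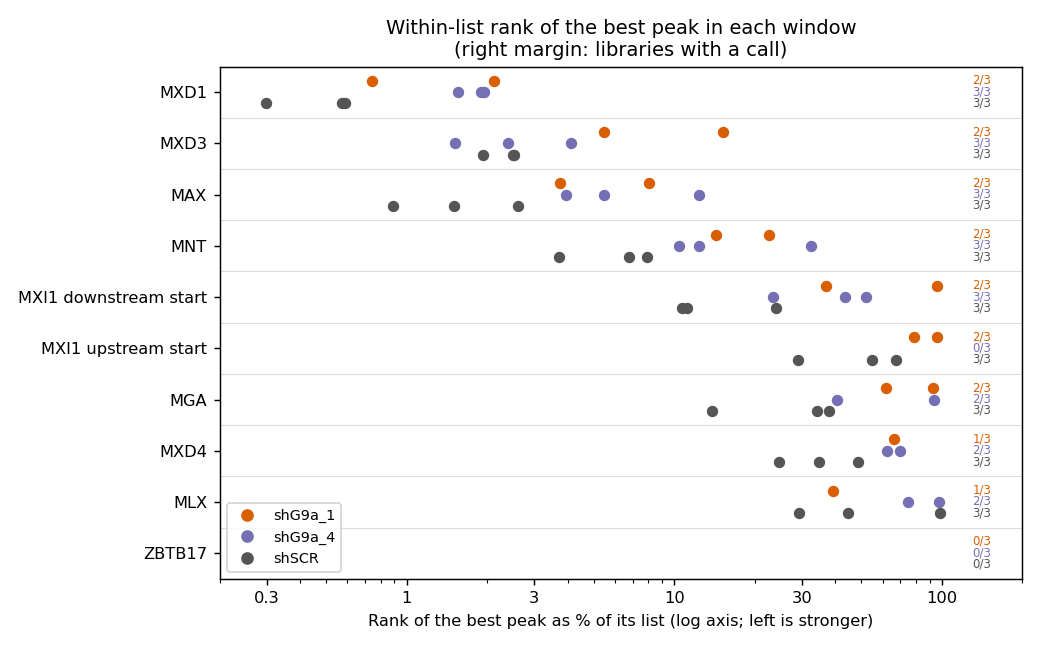
Rank of the best peak of each window as a percentage of the length of its own list (log axis, left is stronger), by hairpin (shG9a_1, shG9a_4, shSCR), with the number of libraries called at the right. MXD1, MXD3 and MAX were in the top 20% of all 8 lists that called them. MGA, MLX and both windows of MXI1 reached past 93% of the way down a list in at least 1 library, MXD4 no further than 69.98%.

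Within each shSCR list the network thus ran from MXD1, MXD3 and MAX through MNT to the downstream start of MXI1. MGA, MXD4, MLX and the upstream start of MXI1 followed in no fixed order. Not every shG9a list kept this order. In shG9a_4 replicate 1 the downstream start of MXI1 ranked 2612, ahead of MNT at 3615. In shG9a_1 replicate 2 both MXI1 windows ranked 10981, behind MXD4 at 7591 and MGA at 10583. MXD1, MXD3 and MAX were the 3 windows in the top 20% of all 8 lists that called them, a threshold chosen after the values were seen. The best peak of MNT was in the top 10.4% to 32.4% of the shG9a lists, against 3.69% to 7.89% of the shSCR lists. MXD3 and MAX were not separated, since their ranks crossed among the libraries of each group. MXD1 ranked ahead of MXD3 in 7 of the 8 libraries, and MAX ahead of MNT in all 8.

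Peak heights at the 6 kept regions were compared as pileup over background, which is the whole-number read pileup at the summit divided by the lowest background of the library, and all 6 were lower in shG9a libraries. These regions were called in all 8 libraries used, 2 of shG9a_1, 3 of shG9a_4 and 3 of shSCR, as were 5245 regions in all. The other 14 member regions were missing from at least 1 of these libraries and had no test of height. At MXD1 the height was 89.2 and 103.7 in shG9a_1 replicates 2 and 3 and 61.6, 94.3 and 51.4 in shG9a_4, against 142.9, 163.9 and 137.3 in shSCR. The means were 80.05 ± 22.4 in shG9a (SD, n = 5) and 148 ± 14.1 in shSCR (SD, n = 3). The groups did not overlap, with a 2-sided exact permutation p of 0.0357, the smallest that 5 against 3 libraries allow.

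At MAX the height was 67.6 and 58.1 in shG9a_1 and 27.6, 77.6 and 41.7 in shG9a_4, against 102.7, 123.0 and 102.9 in shSCR. At MXD3 it was 43.2 and 66.4 in shG9a_1 and 50.3, 92.2 and 41.7 in shG9a_4, against 111.6, 110.7 and 112.7 in shSCR. Neither site overlapped between shG9a and shSCR, and the exact permutation p was 0.0357 at each. The shSCR libraries were close together at MXD3 (SD 1.05, n = 3), whereas the shG9a libraries ranged more widely (SD 21.1, n = 5).

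At the downstream region of MNT the height was 32.4 and 41.5 in shG9a_1 and 20.1, 39.8 and 30.1 in shG9a_4, against 64.7, 86.1 and 73.5 in shSCR. At its upstream region it was 35.1 and 27.0 in shG9a_1 and 25.1, 33.5 and 18.4 in shG9a_4, against 62.5, 71.7 and 53.9 in shSCR. Both separated the groups, with an exact permutation p of 0.0357 each. The middle region did not, with 21.6 and 33.2 in shG9a_1 and 16.3, 37.7 and 15.5 in shG9a_4, against 33.5, 51.2 and 56.4 in shSCR, and an exact permutation p of 0.0714. In total 5 of the 6 sites did not overlap between the groups, each lower in shG9a, and 56.1% of all 5245 regions separated in that direction and 0 in the other.

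Fitted with limma across all 5245 regions, the 6 sites were lower in shG9a than in shSCR, with log2 differences of -0.88 at MXD1 to -1.19 at the downstream region of MNT and Benjamini-Hochberg adjusted p of 0.0158 to 0.00355. The log2 difference was -1.04 at MAX, -1.004 at MXD3, -1.17 at the upstream and -0.94 at the middle region of MNT. All 6 sites had the same standard error of 0.33, from a variance pooled over regions and not from each site's own spread. The same test called 4006 regions (76.4%) lower and 0 higher, and the median log2 difference of all regions was -0.85. All 6 members lay below that median, MXD1, the middle region of MNT, MXD3 and MAX at percentiles 44.6, 33.9, 25.3 and 20.6 of the log2 differences of all regions, and the upstream and downstream regions of MNT at percentiles 9.01 and 7.62. The calls at the members and over all regions dropped together: 0 of the 6 and 7.38% of all regions without shSCR replicate 2, 3 of the 6 and 43.8% without shG9a_1 replicate 2, 2 of the 6 and 23.8% in libraries of like depth, a subset chosen after seeing the data, and 0 of the 6 and 2.86% over the local background of each peak.

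By hairpin, the 6 sites were lower in shG9a_4, with log2 differences of -0.95 to -1.36 and limma adjusted p of 0.0143 to 0.00200, where 85.8% of all regions were called lower. In shG9a_1 the differences were -0.62 to -1.06 and none passed the limma test, with adjusted p of 0.227 to 0.0888, where 0.21% of all regions were called lower. Both comparisons use the same shSCR libraries. The direct difference of shG9a_1 and shG9a_4 was called at 0 of the 6 sites, with a lowest adjusted p of 0.750, and limma called 0 of the 5245 regions in it, 267 at an unadjusted p under 0.05. The shG9a_4 libraries with the lowest heights, replicates 1 and 3, were also those of greatest recovered depth. The 2 measures are not independent, since the lowest background divides the height and is itself the basis of the depth. With shG9a_4 replicate 2, which had the highest median height of the group, left out, 5 of the 6 sites and 2823 of all 5245 regions (53.8%) were called lower in shG9a_1. In the direct difference of the hairpins that fit called 2 of the 6 sites and 1881 regions (35.9%), all higher in shG9a_1. With shG9a_1 replicate 3 and shG9a_4 replicate 2, the libraries of like depth, set against shSCR, the log2 differences were -0.58 at MXD1, -0.70 at MAX, -0.51 at MXD3 and -1.05, -0.38 and -0.87 at the upstream, middle and downstream regions of MNT. That fit called 1 of the 6 sites in shG9a_1, where 18.6% of all regions were called lower, and 0 in shG9a_4, where 1.12% were. Each hairpin is a single library there, assumed to vary like the shSCR libraries, which alone give the spread.

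**Figure D4:**
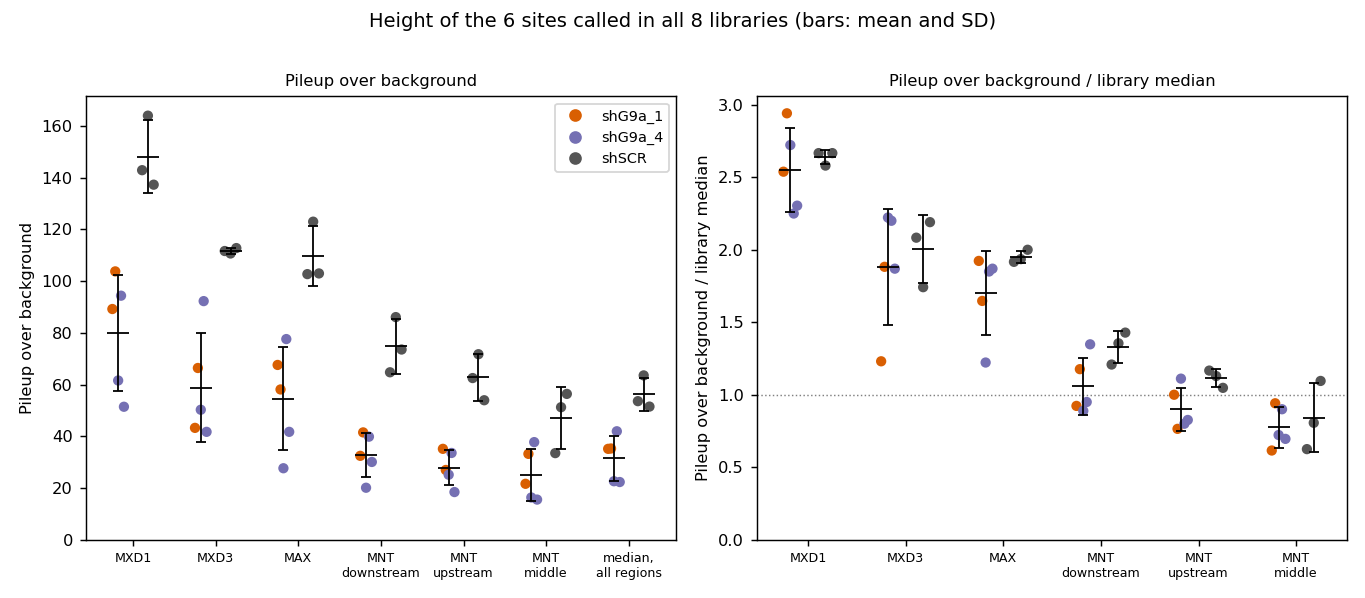
Left, pileup over background at the 6 sites called in 8 libraries, with the median of all 5245 regions at the right; right, the same divided by the median of the library. Points are libraries and black bars the mean ± SD, with shG9a (n = 5) left of shSCR (n = 3) at each site; shG9a is lower at every site on the left, and the groups come close together on the right.

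Heights were also set relative to the rest of the cistrome. The median height of all 5245 regions was 31.5 ± 8.65 in shG9a (SD, n = 5) and 56.2 ± 6.44 in shSCR (SD, n = 3). Divided by that median, the height at MXD1 was 2.55 ± 0.289 times the median in shG9a (SD, n = 5, as for the other sites) and 2.64 ± 0.0497 times in shSCR (SD, n = 3). MXD3 stood at 1.88 ± 0.4004 times in shG9a and 2.01 ± 0.234 times in shSCR. MAX stood at 1.70 ± 0.288 times in shG9a and 1.95 ± 0.0437 times in shSCR. MXD1, MXD3 and MAX were thus above the median of all regions in both groups.

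At MNT the downstream region stood at 1.06 ± 0.198 times the median in shG9a (SD, n = 5) and 1.33 ± 0.112 times in shSCR (SD, n = 3), the upstream region at 0.900 ± 0.149 times in shG9a and 1.11 ± 0.0609 times in shSCR, and the middle region at 0.775 ± 0.139 times in shG9a and 0.842 ± 0.237 times in shSCR. Centred on the median of each library, the limma differences of the 6 sites were -0.35 to -0.04 on the log2 scale and none was called, with adjusted p of 0.602 to 0.9695. The exact permutation p of the centred values was 0.0714 at MAX and at the upstream and downstream regions of MNT, 0.607 at MXD1 and at the middle region of MNT, and 0.786 at MXD3. Among all regions the centred values of shG9a lay wholly below those of shSCR in 2.36% and wholly above them in 3.03%. Among all regions the centred fit called 1 lower (0.0191%) and 4 higher (0.0763%) in shG9a, and 1 lower (0.0191%) and 5 higher (0.0953%) in shG9a_4. Depth, which shares the lowest background with the heights, differed between the libraries along with them. In the libraries of like depth the median log2 difference of all regions was -0.55.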

How the data were processed

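MYC ChIP-seq peak lists of 9 libraries were analysed (shG9a_1, shG9a_4 and shSCR, 3 each). The 9 inputs were not analysed here. Listed in the submitters' processing notes are the builds hg19 and GRCh37, MACS2 2.1.0, Picard 2.7.1, SAMtools 1.3 and STAR 2.5.2a, with no role or order, and nothing on caller settings is given in the sources used here. The authors listed peaks per library, without pooling replicates, going by the names the deposited lists give their peaks. The deposited score is the −log10 q-value times 10 with decimals dropped. The deposited fold is the summit's ratio of pileup over local background, here taken to have 1 added to each, as whole-number pileups then fit every peak. Also deposited, for the summit, were a −log10 p-value and a −log10 q-value, adjusted within each list.

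Of the 151062 deposited peaks, 192 outside chromosomes 1 to 22 and X were left out. Overlapping peaks of all lists were merged (at least 1 bp). With that added 1 removed, pileup and local background were recovered from fold and p-value, which succeeded for 100% of peaks within 0.001 of the −log10 p-value. Heights are pileups over the lowest background that held at least 1% of a library's peaks. limma 3.58.1 in R 4.3.3 fitted their log2, with no pseudocount, over the 5245 regions called in all 8 libraries used, with hairpin as the factor and Benjamini-Hochberg adjustment at 0.05. shG9a_1 replicate 1 was left out of the fit. The adjusted p-values rest largely on shifts that a library's regions share, so regions are not independent. In the fit as reported the sites shared 1 standard error per comparison. Its p-values thus rest on a variance pooled over regions, not on the spread of each site between libraries. All p-values concern these libraries alone. Scripts were tested on simulated data. Python 3.11.15, numpy 2.4.6, pandas 2.3.3, scipy 1.17.1 and matplotlib 3.10.9 served the rest.

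All 9 genes are named by rule, and the members, tests and lists were chosen with earlier results of these data known. Start sites came with the definition of the gene group, and gene strand from RefSeq on GRCh38. Counts over other genes of the pathway were not made, because no annotation on the build of the files was used here. Replicate numbers recur across groups, but same-numbered libraries deviated together with correlations of only -0.0226 to 0.154, so that the numbers were not read as pairs. Alternatives were other scalings, the local background, another region filter, a replicate block, libraries of like depth, other windows and thresholds, and leaving out each library.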

Additional observations from a re-analysis of the deposited data

How the results depend on the processing

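The number of windows with a peak kept within 1.5 times its value under each threshold, window size and left-out library tried. The exception was windows in every shSCR and no shG9a library, 0 as reported and 1 with −log10 q of at least 5 or a fold of at least 5. Peak heights depended on scaling. Regions lower in shG9a than in shSCR (limma, 4006 as reported) numbered 1 centred on the median, 1 quantile normalised, 150 over local background, 1246 in libraries of like depth, 0 in those centred, 1 with regions called in at least 2 libraries of each hairpin and centred, and 387 to 5107 with 1 library left out. Regions higher (0) numbered 4, 3, 0, 1, 0 and 6 in the same order of scalings. In shG9a_1, regions lower (11) numbered 0, 0, 15, 977, 0 and 0 in that order, 2 with the looser filter uncentred and 0 to 2823 with 1 library left out, and 1 was higher with the looser filter centred. In shG9a_4, regions lower (4502) numbered 1, 1, 275, 59, 0 and 1 in that order and 2200 to 5206 with 1 library left out, and those higher 5, 4, 0, 0, 0 and 4.

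In libraries of like depth each hairpin has 1 library, and its spread is taken from shSCR. A replicate block gave 4630 regions lower in shG9a, 1521 in shG9a_1 and 4807 in shG9a_4, and 5 of the 6 members passed in shG9a_1. The block with centring gave 0, 0 and 1 lower and 3, 0 and 5 higher. Calls at members ranged over 0 to 6 of 6 in shG9a, 0 to 5 in shG9a_1, 4 to 6 in shG9a_4 and 0 to 2 between the hairpins with 1 library left out. Over local background and under each centred or quantile scaling, 0 of 6 were called in shG9a and in shG9a_4.

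Some log2 differences changed sign, none past the threshold. MXD1 in shG9a_1 was 0.0509 centred, 0.157 in libraries of like depth centred, 0.0600 with the looser filter centred and 0.0978 with block and centring. MXD3 in shG9a_4 was 0.0671 centred, 0.141, 0.0501 and 0.0671 in the same settings, 0.0779 quantile normalised and 0.0023 over local background, and in shG9a 0.0281 in libraries of like depth centred. The middle region of MNT was 0.17 in shG9a, 0.20 in shG9a_1 and 0.13 in shG9a_4 in libraries of like depth centred. The cause was not tested.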
